A study of Homo sapiens with 2 samples.

Results

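TAGLN and a set of 9 further genes of the contractile actin cytoskeleton or of the YAP response were examined in SBC-3 cells after transfection of an siRNA against HOTAIR. The set held TAGLN, ACTA2, ACTG2, CNN1, MYL9, TPM1, TPM2, CALD1, CCN1 (formerly CYR61) and CCN2 (formerly CTGF), 10 of the 19058 genes that could be named on the array. The set was chosen by the measured log2 ratios of the same 2 arrays, and TAGLN was selected on its lower signal on both of its probes. The ratios below therefore describe the set and carry no test, and no difference is supported by them. A probe belonged to a gene when its spots were not controls and its transcript matched the gene's symbol, which gave 14 probes with 24 spots.

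SBC-3 is an adherent small cell lung cancer (SCLC) cell line, and 1 culture was transfected with #1 siHOTAIR, an siRNA against the long noncoding RNA HOTAIR, and 1 with siGFP, a control siRNA directed at green fluorescent protein. Total RNA of each was labelled with Cy3 and hybridized to 1 one-colour array, so neither condition had a replicate, and an effect of the siRNA cannot be told apart from a difference between cultures or arrays. With 1 siRNA against HOTAIR on the arrays, loss of HOTAIR cannot be told apart from another effect of that siRNA's sequence. In the paper the other siRNAs against HOTAIR also lowered it, but #1 siHOTAIR alone reduced proliferation and invasion. Both arrays lay on the same slide and were read in the same scan. The comparison asked which transcripts differed after transfection of #1 siHOTAIR in this single cell line, and in bulk RNA fewer cells of a type and less RNA per cell cannot be told apart.

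TAGLN, the actins, the tropomyosins, calponin, caldesmon and the myosin light chain belong to the actin filament apparatus with which smooth muscle cells, myofibroblasts and many spread adherent cells contract. Many of these genes are transcribed by serum response factor (SRF), which binds the CArG box of their promoters together with a coactivator of the myocardin family, and the MRTF coactivators enter the nucleus when monomeric actin is used up by filament assembly. CCN1 and CCN2 encode secreted matrix proteins and are the usual reporters of YAP and TAZ, coactivators that are held back by the Hippo kinases and bind DNA through TEAD factors.

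The strands of #1 siHOTAIR are shown because they define the treated culture, with the seed of the antisense strand, bases 2 to 8, in capitals.
Antisense strand: uCUCUCUGuacucccguucuu
Sense strand: gaacgggaguacagagagauu

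Promoter windows of 300 bases (250 before and 50 after the annotated start) were available for 7 of the 10 genes, 12 windows in all, and not for TAGLN, MYL9 or CCN1. They were taken from RefSeq on GRCh38.p14 and searched for the exact CArG pattern CCWWWWWWGG, where W is A or T. This pattern is its own reverse complement, so matches on either strand are found. GGAATG, the core sequence of TEAD sites, was searched on both strands (CATTCC on the other strand). In the windows of the set no match of one motif overlapped a match of the other, and a match is a description of sequence and not of binding. An exact CArG box occurred in 454 of 35116 windows of the same length (1.29%), and among the windows of the set only in that of ACTG2. Near matches were not counted, such as ccctatatgg and ccttgtttgg in the ACTA2 window, which stay in lower case. The search therefore does not show that ACTA2 lacks a site for SRF. GGAATG occurred in 4928 of the 35116 windows (14.0%) and in 4 of the 12 windows of the set, those of CCN2, ACTA2 and, in 2 of its 4 windows, CALD1. The windows of ACTG2, ACTA2 and CCN2 are shown because these genes carry the motifs, with the motif in capitals.
ACTG2, chr2:73892758-73893057, plus strand, CArG boxes 110 and 73 bases before the start: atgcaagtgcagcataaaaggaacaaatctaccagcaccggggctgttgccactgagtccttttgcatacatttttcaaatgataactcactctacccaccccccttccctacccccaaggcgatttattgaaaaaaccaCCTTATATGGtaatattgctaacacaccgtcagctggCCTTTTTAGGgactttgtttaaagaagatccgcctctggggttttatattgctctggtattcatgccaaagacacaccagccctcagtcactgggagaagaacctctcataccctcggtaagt
ACTA2, chr10:88952724-88953023, minus strand, GGAATG 183 bases before the start: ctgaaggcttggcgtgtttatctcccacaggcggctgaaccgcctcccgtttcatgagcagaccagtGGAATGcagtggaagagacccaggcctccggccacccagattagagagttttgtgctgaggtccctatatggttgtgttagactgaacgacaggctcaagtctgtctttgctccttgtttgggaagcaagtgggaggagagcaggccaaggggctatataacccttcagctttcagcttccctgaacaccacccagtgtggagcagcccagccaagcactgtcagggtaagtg
CCN2, chr6:131951323-131951622, minus strand, GGAATG 169, 104 and 95 bases before the start: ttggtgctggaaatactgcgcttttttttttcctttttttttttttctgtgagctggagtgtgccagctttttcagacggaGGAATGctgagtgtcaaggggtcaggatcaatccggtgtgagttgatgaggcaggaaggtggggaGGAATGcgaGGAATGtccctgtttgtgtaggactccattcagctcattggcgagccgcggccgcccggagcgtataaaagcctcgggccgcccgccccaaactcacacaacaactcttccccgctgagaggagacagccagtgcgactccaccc

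On each array, processed signals were put on the log2 scale and the 75th percentile of that array was subtracted, 650.3 for #1 siHOTAIR and 629.9 for siGFP, and all ratios below are log2 differences, #1 siHOTAIR minus siGFP, of these scaled signals. Signals are given in the intensity units of the scanner software. The software called 55.5% and 58.3% of the non-control spots well above background and none saturated. The SD given with a ratio was taken from the spread of repeated spots on an array at the same level of signal and covers measurement error only. A 2-fold difference was used to call a probe lower or higher. Of the 24117 probes detected well above background on 1 array or both, 4.10% were lower and 3.30% higher by at least 2-fold. HOTAIR itself, measured by 1 spot, gave 108 with #1 siHOTAIR and 244 with siGFP, 57.2% lower with a log2 ratio of -1.22 ± 0.21 (measurement SD). The reference genes lay near 0, with -0.05 and -0.02 on the probes of ACTB, a cytoplasmic actin, and -0.00 on that of GAPDH, a glycolytic enzyme.

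All 14 probes of the set passed the background limit on both arrays, as did 23 of the 24 spots, the exception being 1 CNN1 spot in #1 siHOTAIR-transfected cells. Each of the 14 ratios and each of the 24 spot ratios was below 0, where 45.8% of the 21428 probes well above background on both arrays were. Of the probes of the set, 4 (28.6%) were at least 2-fold lower and 0 at least 2-fold higher, against 1.54% lower among all probes well above background on both arrays. At 1.5-fold, 9 probes of the set were lower, against 5.84% of all such probes. These counts use the contrast by which the set was chosen, and nothing is read from the excess. By gene, on the probe with the highest mean signal, 3 genes were at least 2-fold lower, 3 between 1.5-fold and 2-fold lower and 4 below 1.5-fold. The median ratio of the genes was -0.61, and that of the 13012 named genes compared was 0.02.

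**Figure D1:**
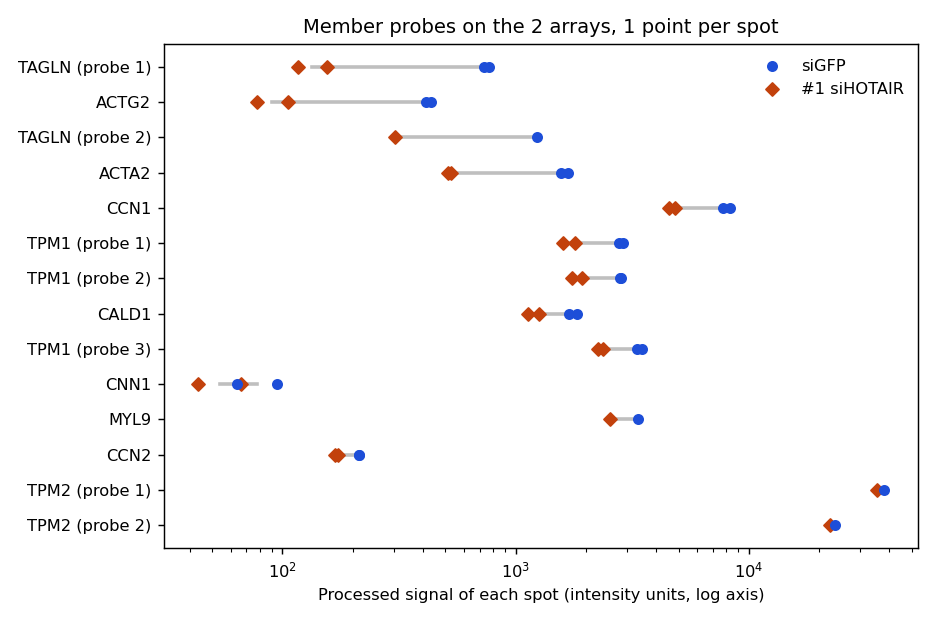
Processed signal of each spot (intensity units, log axis) for the 14 probes of the set, with blue circles for siGFP, orange diamonds for #1 siHOTAIR and a grey line between the probe means. The gap is widest for TAGLN, ACTG2 and ACTA2 and is narrowest for TPM2, 22375 against 23305 on its second probe, whose sign turned when the arrays were scaled to the spike-in RNA.

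TAGLN encodes transgelin (SM22 alpha), an actin-binding protein of the calponin family and an early marker of smooth muscle differentiation. Its probe with 2 spots read 116 and 155 after #1 siHOTAIR and 733 and 772 after siGFP. The spots did not overlap between the arrays, and the lower siGFP spot was above the higher #1 siHOTAIR spot by more than the spread of either pair. These spots are repeats within an array, and the share of all probes without such overlap was not counted. Nothing is read from the separation of spots, for TAGLN or for the genes below. The averaged signals were 134 and 752, a log2 ratio of -2.53 ± 0.14 (measurement SD), or 5.78-fold lower. The second TAGLN probe, for the same transcript, had 1 spot with signals of 304 and 1233, a ratio of -2.07 ± 0.11, or 4.19-fold lower. The probes thus gave 82.7% and 76.1% less signal, and their mean ratio was -2.30. Counted from the lowest ratio among the 21428 probes, they ranked 5 and 18. Of the 11822 probes with a mean signal at least that of the dimmer TAGLN probe, 3, itself included, had a ratio as low.

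ACTG2 encodes the gamma actin of enteric smooth muscle, and ACTA2 the alpha actin of vascular smooth muscle and myofibroblasts. The ACTG2 spots read 105 and 77.6 after #1 siHOTAIR and 434 and 412 after siGFP. Their means were 90.4 and 423, a ratio of -2.27 ± 0.15, or 4.83-fold lower, which ranked 10 among the probes. The ACTA2 spots read 511 and 528 against 1570 and 1678, so that the pairs of each array lay close together and far from those of the other. Their means were 520 and 1623, a ratio of -1.69 ± 0.07, or 3.23-fold lower, and ranked 46. Among the 7376 probes at least as bright as ACTA2, 9, itself included, had a ratio as low. TAGLN, ACTG2 and ACTA2 were the 3 genes past 2-fold. The next gene, CCN1, stood at 1.76-fold. The deposited files name each probe's transcript without the probe's sequence, and whether the actin probes also take up RNA of other actins was not tested.

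TPM1 and TPM2 encode tropomyosins, which lie along actin filaments and set the access of myosin to them. TPM1 was measured by 3 probes on different transcripts with 2 spots each. The probe lowest in ratio read 1686 and 2827, a ratio of -0.79 ± 0.06, the next 1835 and 2815, a ratio of -0.66 ± 0.06, and the last 2310 and 3390, a ratio of -0.60 ± 0.06. The TPM1 probes thus differed by 0.19 among themselves, and each was lower by between 1.51-fold and 1.73-fold. TPM2 had 1 spot on each of its 2 probes, which read 35567 against 38013 and 22375 against 23305. The ratios of -0.14 and -0.10 were 1.96 and 1.44 times the measurement SD of 0.07, and the sign of both turned, to 0.028 and 0.065, when the arrays were scaled to the spike-in RNA.

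CALD1 encodes caldesmon, an actin- and calmodulin-binding protein that inhibits the myosin ATPase. Its spots read 1253 and 1127 after #1 siHOTAIR and 1835 and 1696 after siGFP, a ratio of -0.62 ± 0.06 or 1.53-fold. CNN1 encodes calponin 1, a marker of differentiated smooth muscle. Its spots read 66.4 and 43.5 against 94.3 and 64.0, so the arrays overlapped in the raw signals, while the ratio of each spot to its partner was -0.55 and -0.60. The CNN1 ratio of -0.58 had a measurement SD of 0.17. MYL9 encodes the regulatory light chain of smooth muscle and nonmuscle myosin II, whose phosphorylation starts contraction. Its single spot read 2544 and 3335, a ratio of -0.44 ± 0.08.

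CCN1 and CCN2 are the usual YAP and TAZ reporters in the set, and whether their ratios follow YAP, SRF or another factor was not tested. The CCN1 spots read 4564 and 4839 after #1 siHOTAIR and 7719 and 8295 after siGFP, without overlap. The ratio was -0.81 ± 0.05, or 43.1% less signal, and among the 2273 probes at least as bright 13, itself included, had a ratio as low. CCN2 was lower by less, with spots of 173 and 168 against 212 and 212 and a ratio of -0.36 ± 0.15, 1.29-fold. On the brightest probe of each gene, the set spanned ratios from -2.27 for ACTG2 to -0.14 for TPM2. The other TAGLN probe gave -2.53, so the order of ACTG2 and TAGLN depended on the probe. In the order by brightest probe, several neighbours differed by less than the larger of their measurement SDs. These were CALD1, TPM1 and CNN1, CNN1 and MYL9, and MYL9 and CCN2. The order from CALD1 to CCN2 is therefore not resolved step by step.

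**Figure D2:**
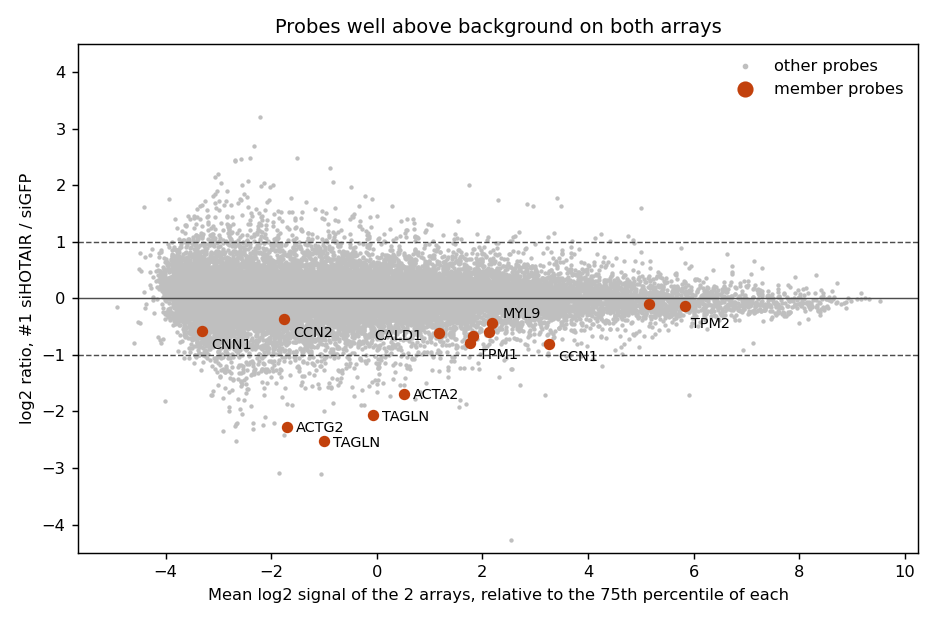
Log2 ratio, #1 siHOTAIR over siGFP, against the mean log2 signal relative to the 75th percentile of each array, for 21428 probes well above background on both arrays, with the 14 probes of the set in orange and 2-fold marked by dashed lines. The probes of TAGLN, ACTG2 and ACTA2 lie below -1 and the remaining probes of the set between -0.81 and -0.10, and 1 probe lies outside the plotted range.

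Repeated spots of a probe show how far its ratio varied within the arrays. Among the probes of the set, 10 had 2 spots, and the ratios of the pairs differed by 0.02 to 0.36, with a median difference of 0.08. Of these 10 probes, 3 (TAGLN, ACTG2 and ACTA2) had both spots at least 2-fold lower, against 1.03% of the 4639 probes with 2 spots well above background on both arrays. These spots gave the ratios by which the set was chosen, and nothing is read from the excess. The software's own error estimate was larger than the measurement SD, with an SD of 0.20 to 0.38 for the ratio of a single spot. The ratios of TPM2 lay within it. Of the 24 spots, 7 lay in the upper part of the array (the first 37.5% of its rows), and 5 probes had 1 spot there and 1 in the lower part. Of the spots that passed the background limit on both arrays, the share at least 2-fold lower was 1.79% in the upper part and 1.66% in the lower part. In the lower part alone, ACTG2 read -2.46, TAGLN -2.36 and ACTA2 -1.71.

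The nearest relatives of the set, 17 genes of the same families, had 12 genes that were compared, with 0 past 2-fold in either direction. Of the 11 measured well above background on both arrays, 10 had a ratio below 0, a count that came to 6 with spike-in scaling, and the median was -0.21. The myosin light chains MYL12B, MYL12A and MYL6, which share the role of MYL9 in myosin II or form its essential chain, had ratios of -0.46, -0.41 and -0.37. The nonmuscle tropomyosin TPM4 had -0.38, and TPM3 -0.09, a value that spike-in scaling turned to a positive one and that ran from -0.45 to 0.21 over its 6 probes. The calponin relatives CNN2 and CNN3 had -0.25 and -0.21. TAGLN2, the broadly expressed relative of TAGLN, read 5866 and 5790, a ratio of -0.03 that changed sign with the scaling, against -2.07 on the brighter TAGLN probe. The cytoplasmic actins ACTB and ACTG1 had -0.02, a value that also changed sign with the scaling, and 0.12, against -1.69 for ACTA2 and -2.27 for ACTG2. CCN3 had -0.10, positive under spike-in scaling. ACTA1 was well above background on the siGFP array alone and near the limit there, and TAGLN3, ACTC1, CCN4, CCN5 and CCN6 were well above background on neither array.

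Of 17 other contractile genes, 14 were detected on both arrays, with 0 past 2-fold in either direction on the brightest probe and a median of -0.11, which became 0.06 with spike-in scaling. The lowest was CSRP1, a LIM protein of smooth muscle, at -0.51, and the highest PDLIM7, an adaptor on actin filaments, at 0.51, while its other probes gave -0.02 and -0.36, so its direction depended on the probe. MYLK, the kinase of the myosin light chain, had -0.34 on its brighter probe. Its second probe, with 32.3 and 77.8, was well above background on the siGFP array alone. With the dim signal raised to the background limit, that probe was 2.16-fold lower. MYH11, the smooth muscle myosin heavy chain, and LMOD1 and SYNPO2 were well above background on neither array. The lower ratios of TAGLN, ACTG2 and ACTA2 stood beside a smooth muscle myosin heavy chain that was not measured above background in SBC-3 cells.

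Of 17 other SRF targets, 16 were well above background on both arrays, with a median of -0.05 that became 0.12 with spike-in scaling. EGR2, an immediate early zinc finger factor, read 47.7 and 93.9, a ratio of -1.02 ± 0.17, and was the 1 gene past 2-fold, though not with spike-in scaling. EGR1, its relative, named after its value was seen, read 3969 and 6456, a ratio of -0.75. The highest on its brightest probe was PDLIM7, shared with the contractile list. Of 21 other YAP, TAZ and TEAD targets, 14 passed on both arrays and 9 of these had a ratio below 0, 5 with spike-in scaling. Their median of -0.04 became 0.13 with spike-in scaling and 0.01 without scaling. The lowest on both arrays was AMOTL2, a feedback inhibitor of YAP, with 3463 and 5840 and a ratio of -0.80, and the highest TGFB2, a ligand, at 0.62. RBMS3, an RNA-binding protein, was well above background on the siGFP array alone and was 1.43-fold lower with its dim signal raised to the background limit. ANKRD1, CRIM1, NT5E, IGFBP3 and FOXF2 were well above background on neither array. Of 13 TGF-beta targets, 9 were measured on both arrays with a median of 0.26, from PMEPA1, an inhibitor of the pathway, at -0.47 to COL1A1, a chain of type I collagen, at 0.96, which spike-in scaling carried past 2-fold. A second PMEPA1 probe, with 35.3 and 102, was well above background on the siGFP array alone. With the dim signal raised to the background limit, that probe was 2.84-fold lower.

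**Figure D3:**
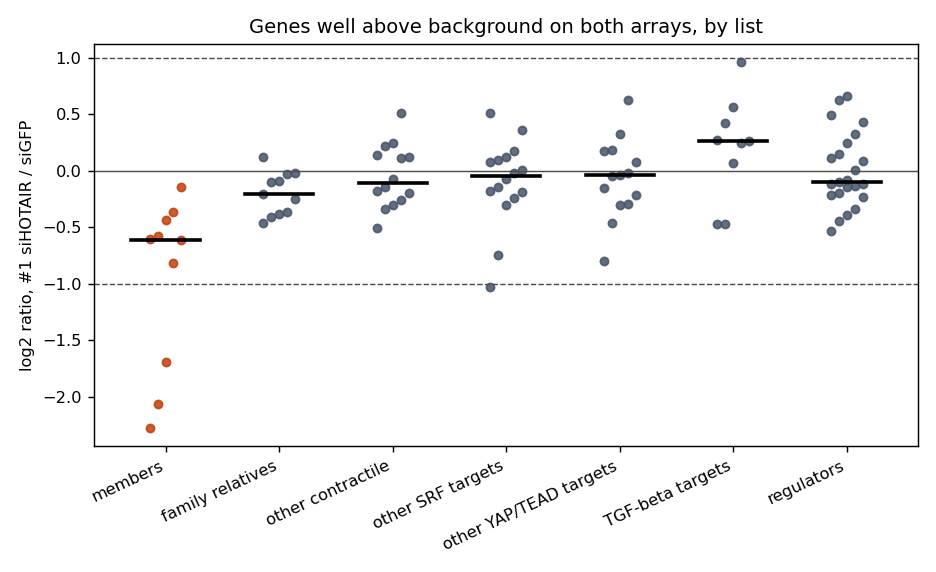
Log2 ratio, #1 siHOTAIR over siGFP, of the genes well above background on both arrays in the set and in 6 further lists, 1 point per gene on its brightest probe, with the list median as a bar and 2-fold marked by dashed lines. The set has its median at -0.61 and 3 genes below -1. It was chosen by these ratios, so nothing is read from its distance to the other lists. The medians of the other lists lie between -0.21 and 0.26. Those of other contractile genes, other SRF targets, other YAP/TEAD targets and regulators turn positive with spike-in scaling. Of all probes well above background on both arrays, 1.54% were at least 2-fold lower.

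Of 24 genes for SRF, its coactivators, YAP, TEAD and their regulators, 23 were measured on both arrays, with a median of -0.10 that became positive with spike-in scaling and 0 past 2-fold. MYOCD, the coactivator of smooth and cardiac muscle, read 9.57 and 41.8 and was well above background on the siGFP array alone. A CNN1 spot of 43.5 on the #1 siHOTAIR array also failed the background limit, so no minimum fold is given for MYOCD. With its dim signal raised to the background limit, MYOCD had a log2 ratio of -0.21 with a measurement SD of 0.17. Spike-in scaling raised every ratio by 0.17. Of genes well above background on both arrays, RHOB, a small GTPase of actin regulation, was lowest at -0.53 and MOB1B, a Hippo kinase cofactor, highest at 0.66, while the other MOB1B probes gave -0.02 and -0.11. The following were named for their roles after their values were seen. SRF had 92.5 and 88.9, a ratio of 0.01, and its coactivators MRTFA and MRTFB had 0.25 and -0.11. YAP1 read 6522 and 6750 over 9 spots, a ratio of -0.10, and WWTR1, which encodes TAZ, -0.39. The DNA-binding partners TEAD1, TEAD2, TEAD3 and TEAD4 had -0.34, 0.09, -0.45 and 0.63. With spike-in scaling the values of MRTFB and YAP1 turned positive. RNA of these factors says nothing of their activity, which was not measured.

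Genes whose pattern was most like that of TAGLN were sought among the 2652 named genes with at least 2 probes well above background on both arrays. Of these, 12 (0.452%) had every such probe at least 2-fold lower, TAGLN included. By the difference in mean log2 ratio between these 2 arrays, the nearest were TUBA4A, an alpha tubulin, with a mean of -1.87 over 3 probes, LINC00467, a long noncoding RNA, with -1.85, LIMCH1, an activator of nonmuscle myosin II, with -1.53, TMEM209, a nuclear membrane protein, with -1.51, and RYR2, a calcium release channel, with -1.40. They differed from TAGLN by 0.43 to 0.90. The TUBA4A probes were spread from -3.10 to -1.01, more widely than those of TAGLN.

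The label of SBC-3 was set against markers of its cell type. Of 11 SCLC and neuroendocrine markers, 3 were well above background on both arrays, NEUROD1 at 213 and 372, ENO2 at 620 and 770 and DLL3 at 679 and 570. CHGA was well above background on the #1 siHOTAIR array alone, and was 2.44-fold higher with its dim signal raised to the background limit. NCAM1 and CHGB passed on that array alone too, too near the limit for a fold, and POU2F3, INSM1, SYP, UCHL1 and SCG2 were well above background on neither array. The summed signal of the 11 was 1710 and 1787. Since some genes of the set are also expressed by fibroblasts and mural cells, 11 of their markers were examined, of which 3 were well above background. COL1A2 had 3758 and 3741, COL1A1 832 and 414, and NOTCH3, a receptor of mural cells, 1147 and 543, more than 2-fold higher with #1 siHOTAIR, opposite in direction to TAGLN. The defining markers PDGFRB, PDGFRA, LUM, DCN, COL3A1, THY1, RGS5 and MYH11 were well above background on neither array, and the summed signal was 5814 and 4782. Epithelial markers summed to 3313 and 3181 (4 of 5 well above background on at least 1 array, CDH1 on neither), most of it from KRT8 at 2825 and 2557. KRT18 went the other way, with 431 and 565, while EPCAM passed on the siGFP array alone and KRT19 on the #1 siHOTAIR array alone. Endothelial markers summed to 157 and 152 (1 of 4) and leukocyte markers to 326 and 264 (3 of 4). The part of these cell types in the ratios of the set was not tested.

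**Figure D4:**
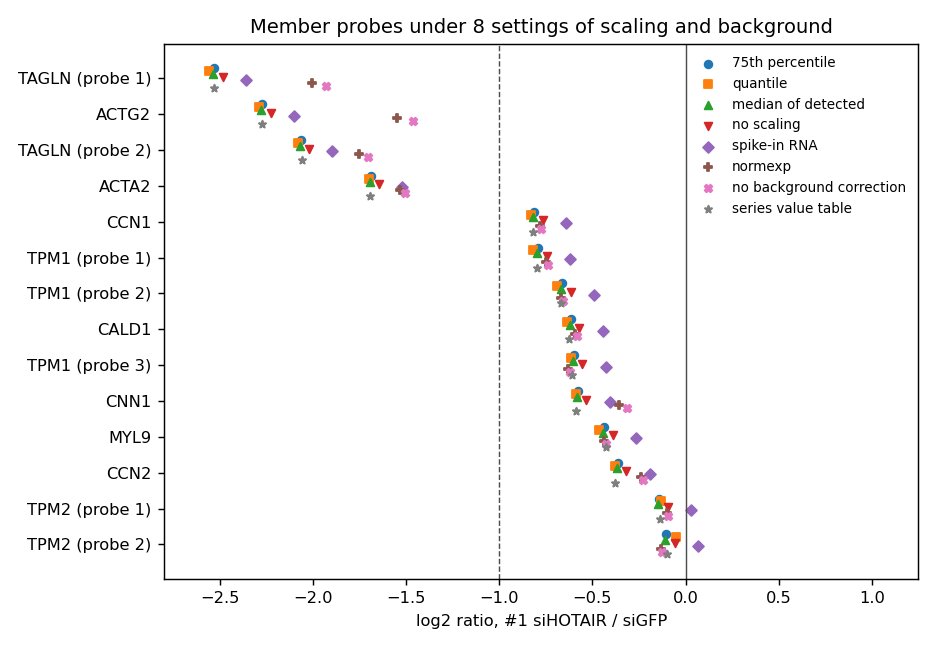
Log2 ratio, #1 siHOTAIR over siGFP, of the 14 probes of the set under 8 settings of scaling, background correction and table, 1 symbol per setting, with 0 as a solid line and 2-fold lower as a dashed line. The probes of TAGLN, ACTG2 and ACTA2 stay below -1 in each of the 8 settings, and the probes of TPM2 alone pass 0, at 0.028 and 0.065 with spike-in scaling.

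The ratio was recomputed under 7 alternatives of scaling, background correction and table. TAGLN ranged from -2.08 to -1.71 on the brighter probe and from -2.56 to -1.93 on the other, ACTG2 from -2.29 to -1.46 and ACTA2 from -1.70 to -1.51. Scaling to the spike-in RNA moved the median ratio of all compared probes from 0.01 to 0.18, so that every ratio was 0.17 higher than in the values above.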

How the data were processed

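RNA was labelled with Cy3 by the authors and hybridized to 1 Agilent 8x60K array per condition and the spots were extracted with Agilent Feature Extraction 10.10.1.1, per the submitters' processing notes. The deposited processed signal is an intensity after background subtraction and correction of trends across the slide, not normalized between arrays. A deposited value table equals the background-subtracted signal (largest difference 0) and was used as an alternative.

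Outlier spots were left out, log2 signals were set against the 75th percentile of non-control spots, and spots were averaged by probe (Python 3.11.15, pandas 2.3.3, numpy 2.4.6). A probe entered the comparison when 50% or more of its spots exceeded background clearly on 1 array or both, by the software's call. Of 42402 probes, 24821 (58.5%) were named by matching transcripts to a RefSeq table of GRCh38.p14. A gene was read on its brightest probe. Where 1 array alone passed, the dim signal was raised to the lowest signal well above background, 37.3 or 28.6. No fold is given for MYOCD or where that turned the direction. Such a fold is not a strict minimum, since a CNN1 spot of 43.5 was not called well above background on the #1 siHOTAIR array. Measurement SD came from probes with about 10 spots in 6 levels of signal.

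With 1 array per condition, no test was run and no P-value was computed. The number of arrays limits the precision. Members and lists were chosen with earlier results of these data known. Of the marker lists, 1 gene is left out of the text. Named genes were every member, the reference genes, genes of each list past 2-fold or otherwise its highest and lowest, every compared relative, the cell type markers, and the 5 genes most like TAGLN. Genes outside the rule (EGR1, MYLK, SRF, MRTFA, MRTFB, YAP1, WWTR1 and TEAD1 to TEAD4) were named after their values were seen, and so were lists' lowest or highest genes where another gene passed 2-fold. Alternatives were spike-in scaling, quantile normalization, no scaling, the median of detected probes, normexp (offset 50, limma 3.58.1 in R 4.3.3) on the median signal, no background correction, the value table (floor of 10), other filters, thresholds of 1.5-fold and 3-fold, dim signals at their bound, and the median of a gene's probes.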

Additional observations from a re-analysis of the deposited data

How the results depend on the processing

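The ratio of TAGLN, -2.07 on its brighter probe, was -1.90 with spike-in scaling, -1.75 with normexp background correction, -1.71 without background correction and -2.30 as the median of its probes. With the spots of the lower 62.5% of the rows only, an alternative chosen after seeing the data, it was -2.36, because only the dimmer TAGLN probe has a spot there. The count of probes at least 2-fold lower was 4 in the other settings of scaling, correction and filter, 3 with those rows only and 4 at 3-fold, and 9 at 1.5-fold. The median of the genes, -0.61, was -0.44 with spike-in scaling. The TPM2 probes turned to 0.028 and 0.065 with spike-in scaling, and this was the only change of direction among 98 values of the 14 probes under 7 alternatives, of which 75 moved by less than the measurement SD. The cause of these shifts was not tested. Signal over background limits CNN1, CCN2 and the dim spots of TAGLN and ACTG2. No paired analysis was possible because each condition had 1 array. No replicate could be left out.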
